A study of Mus musculus with 38 samples.

Results

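The choroid plexus is the sheet of secretory epithelium that hangs in the brain ventricles and makes cerebrospinal fluid. In the lateral ventricle it lies against the hippocampus, so that a dissected hippocampus can carry some of it. Its epithelial cells make transthyretin in very large amounts, keep the blood and the fluid apart with their tight junctions, and move water, bicarbonate, potassium and folate between them with dedicated channels and carriers. The genes described here are 10 genes known for their high expression in this epithelium, out of 48709 genes counted in the hippocampus of 38 mice. They were chosen by name and matched by Ensembl identifier, and each of them had exactly 1 identifier in the data. They are Ttr (ENSMUSG00000061808), Enpp2 (ENSMUSG00000022425), Kl (ENSMUSG00000058488), Folr1 (ENSMUSG00000001827), Aqp1 (ENSMUSG00000004655), Slc4a5 (ENSMUSG00000068323), Clic6 (ENSMUSG00000022949), Kcne2 (ENSMUSG00000039672), Kcnj13 (ENSMUSG00000079436) and Otx2 (ENSMUSG00000021848), and all are protein coding.

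The mice were on a C57BL/6 background and belonged to 8 groups, set by age (6 or 10 months), genotype (WT or APPPS1ΔE9, which the labels call APPdelta9) and chow (placebo or anle138b). APPPS1ΔE9 mice carry a mutant amyloid precursor protein together with a presenilin 1 with a deleted exon, and form amyloid plaques. anle138b is a diphenylpyrazole compound that was mixed into the food, and the placebo chow lacked it. At 6 months (the pre-plaque group) there were 4 WT placebo, 4 WT anle138b, 4 APPPS1ΔE9 placebo and 4 APPPS1ΔE9 anle138b mice. At 10 months (the post-plaque group) there were 5, 5, 5 and 7. Total RNA came from whole tissue, and each mouse gave 1 library. The promoters of the transgenes are not given in the sources used here.

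Libraries held between 15847985 and 31895808 counted reads, with a median of 24530658. The 4 WT placebo libraries of 6 months are called WT in their titles and APPdelta9 in another label. App, the gene of the amyloid precursor protein, was at 1522 to 1799 CPM (a gene's count scaled by library size) in all mice used as WT and at 3274 to 4286 CPM in all APPPS1ΔE9 mice, so these 4 libraries were at the WT level. Xist was higher than the sum of 4 Y-linked genes in 12 mice, of which 3 were among the 11 mice with high choroid plexus genes described next. It was at 1154 CPM or more in these 12 and at 5.41 CPM or less in the other 26. The paper describes all mice as male, which the reads of these 12 mice do not match. Each age was a cohort of its own, so age and cohort cannot be told apart. All reads of a bulk library are mixed, and more choroid plexus cells in a sample and more RNA of these genes per cell cannot be told apart.

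The 38 mice fell into 11 with high and 27 with low values of the choroid plexus genes, and every one of the 10 genes separated the same mice without overlap. Ttr was between 3736 and 7468 CPM in the 11 mice and between 13.1 and 643 CPM in the other 27. In each of the 11 mice, all 6 genes that are scarce in neurons and glia (Folr1, Clic6, Kcne2, Otx2, Slc4a5 and Kcnj13) were at 10 CPM or more, and in none of the 27 were they. These were 10 of 16 mice at 6 months and 1 of 22 mice at 10 months. This limit of 10 CPM was chosen after the values were seen, and 5 CPM or a Ttr level of 1000 CPM picked 11 mice as well.

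By group, the mice with high values were 3 of 4 WT placebo mice at 6 months (mice 30, 31 and 37), 3 of 4 WT anle138b mice (33, 39 and 41) and 3 of 4 APPPS1ΔE9 anle138b mice (15, 16 and 27). In APPPS1ΔE9 placebo mice at 6 months only 1 of 4 was high (mouse 17). At 10 months the only high mouse was mouse 99, 1 of 7 APPPS1ΔE9 anle138b mice, and 0 of 5 were high in each of the other 3 groups. At the lower limit of 1 CPM for all 6 genes, set as the main count, 15 of 38 mice passed, 12 of 16 at 6 months and 3 of 22 at 10 months. The added mice were 74, 83, 52 and 93, whose Ttr levels were 643, 207, 103 and 226 CPM. No mouse had all 6 genes under 1 CPM, and each of the 10 genes had reads in all 38 mice, the lowest being 3 reads for Slc4a5 and for Kcnj13.

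**Figure D1:**
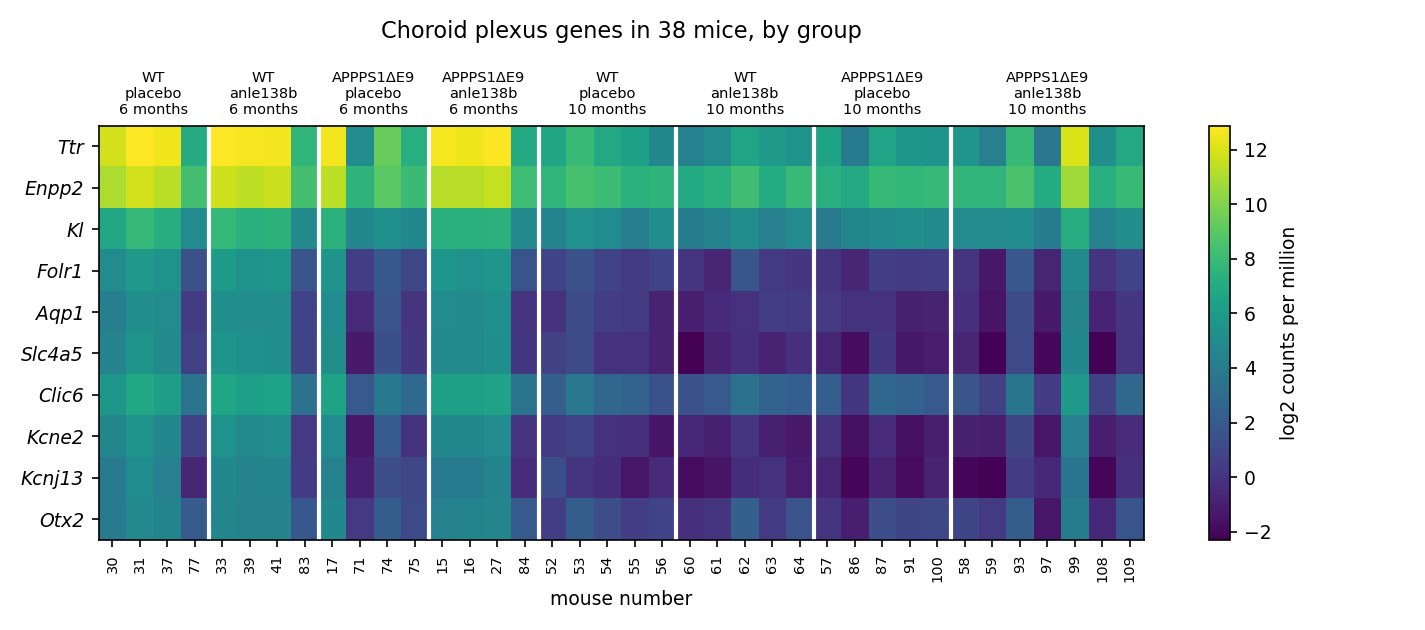
Log2 CPM of the 10 choroid plexus genes (rows) in the 38 mice (columns, by mouse number), with the 8 groups set apart by white lines. The 11 high mice stand out as columns that are lighter in every row, 10 of them at 6 months and mouse 99 at 10 months.

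The high mice of 6 months also had the low mouse numbers. The 10 high mice were numbered between 15 and 41, and the 6 low mice of the same age between 71 and 84. What the numbers stand for is not given in the labels, and their part in the difference was not tested. Sequencing lane did not separate the mice in the same way: at 6 months 5 of 6 mice of lane 4, 2 of 6 of lane 5 and 3 of 4 of lane 6 were high. In lane 4 and lane 5 the high mice came from different groups, and lane 6 held APPPS1ΔE9 anle138b mice only.

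**Figure D2:**
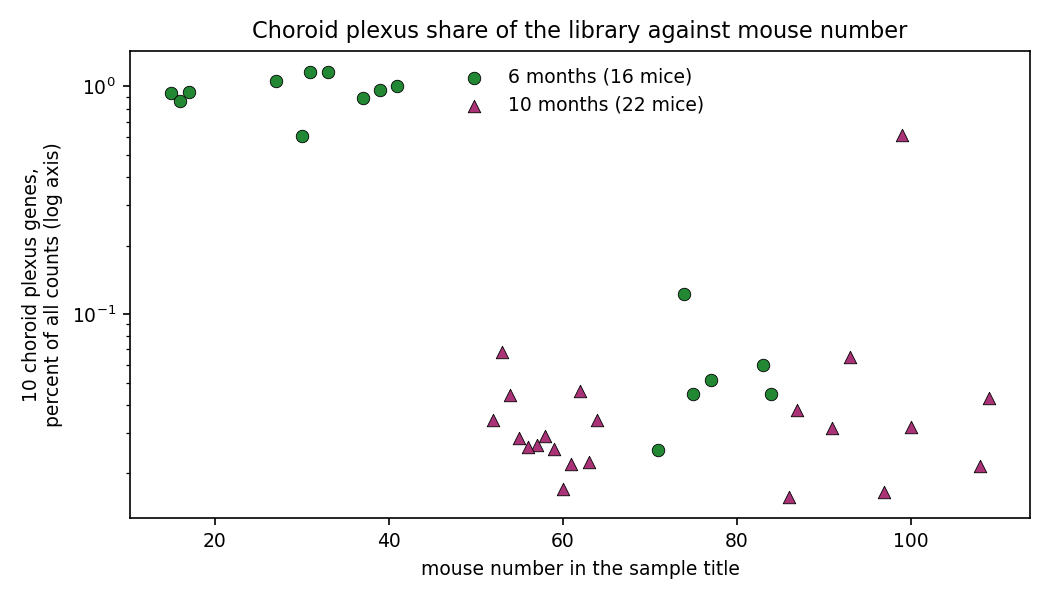
Share of all counts taken by the 10 genes (percent, log axis) against the mouse number in the sample title, with 6-month mice as circles and 10-month mice as triangles. All 10 circles at mouse numbers up to 41 lie at 0.606% or more, and the 6 circles from 71 to 84 lie at or below 0.123%.

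Taken as a sum, the 10 genes made up between 0.606% and 1.16% of all counts in the 11 mice and between 0.0158% and 0.123% in the 27. Among the 11 mice the sum varied 1.91-fold, while its lowest value there was 4.95-fold above the highest value in the 27. Mouse 74, an APPPS1ΔE9 placebo mouse of 6 months, held that highest value. The 11 mice came from libraries of 17764531 to 31895808 reads, which covers most of the range of all libraries.

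The secreted proteins came first in abundance. Ttr encodes transthyretin, the carrier of thyroid hormone and retinol-binding protein in cerebrospinal fluid. Ttr was at 3736, 7229, 5945 and 137 CPM in WT placebo mice of 6 months. It was at 7468, 6534, 6256 and 207 CPM in WT anle138b mice of that age. In each of these groups 1 of 4 mice was far below the others.

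Ttr was at 6487, 5743, 7123 and 121 CPM in APPPS1ΔE9 anle138b mice of 6 months. In APPPS1ΔE9 placebo mice it was at 6335, 31.7, 643 and 146 CPM, so that here 1 mouse was high and 3 were low. At 10 months Ttr was at 103, 244, 119, 83.2 and 27.9 CPM in WT placebo mice. The other groups of 10 months gave similar levels with a single exception.

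Ttr was at 20.4, 31.6, 94.0, 57.5 and 45.8 CPM in WT anle138b mice of 10 months. It was at 93.3, 15.7, 94.6, 53.6 and 46.5 CPM in APPPS1ΔE9 placebo mice. In the 7 APPPS1ΔE9 anle138b mice it ranged from 13.1 to 4092 CPM with a median of 47.9 CPM, and the highest value was that of mouse 99. Mouse 99 thus reached the level of the high mice of 6 months, and all groups of 10 months overlapped.

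**Figure D3:**
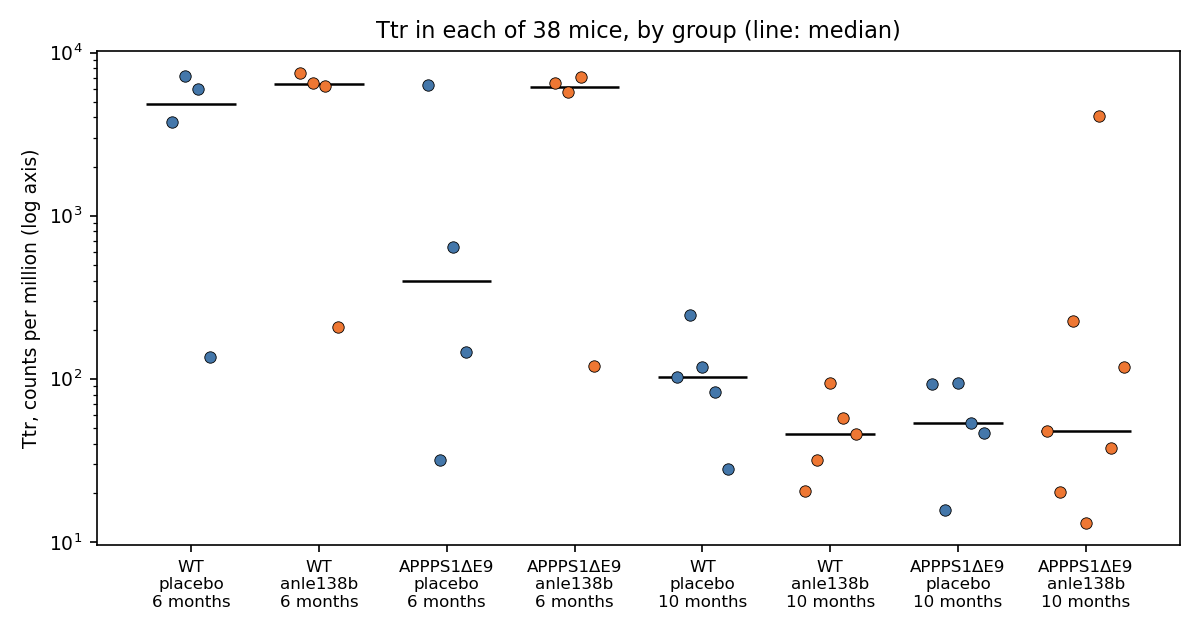
Ttr in each mouse (points, CPM on a log axis) by group, with a line at the median of each group. Each group of 6 months holds points at 3736 CPM or more and points at 643 CPM or less, and at 10 months mouse 99 at 4092 CPM lies above all others, of which the highest is at 244 CPM.

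Enpp2 encodes autotaxin, a secreted enzyme that makes lysophosphatidic acid and that oligodendrocytes express as well. Enpp2 was between 1712 and 3725 CPM in the 11 mice and between 114 and 509 CPM in the 27. Kl encodes klotho, a membrane and secreted protein that acts as a co-receptor for a fibroblast growth factor and is also made by neurons. Kl was between 112 and 222 CPM in the 11 mice and between 15.3 and 42.7 CPM in the 27. Both genes have other sources in the brain, and their lowest levels were well above those of the 7 genes that follow.

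Folr1 encodes the folate receptor that carries folate into cerebrospinal fluid, and was between 29.3 and 62.9 CPM in the 11 mice and between 0.315 and 3.51 CPM in the 27. Aqp1, the water channel of the apical membrane, was between 19.3 and 39.3 CPM in the 11 and between 0.270 and 3.18 CPM in the 27. Slc4a5, a sodium bicarbonate cotransporter, was between 22.1 and 46.5 CPM in the 11 and between 0.122 and 2.51 CPM in the 27. Of all 10 genes Slc4a5 had the widest gap, its lowest value in the 11 being 8.80 times its highest value in the 27.

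Clic6, a chloride intracellular channel protein, was between 52.5 and 106 CPM in the 11 mice and between 1.02 and 14.2 CPM in the 27. Kcne2, an accessory subunit of potassium channels, was between 20.03 and 45.2 CPM in the 11 and between 0.238 and 4.07 CPM in the 27. Kcnj13, an inwardly rectifying potassium channel (Kir7.1), was between 12.2 and 33.2 CPM in the 11 and between 0.135 and 2.46 CPM in the 27. Otx2, the transcription factor that choroid plexus epithelium needs to form and to persist, was between 15.8 and 28.3 CPM in the 11 and between 0.309 and 5.11 CPM in the 27. The gap was narrowest for Kl, where the lowest of the 11 was 2.62 times the highest of the 27.

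Per length, as CPM per kilobase of annotated exons, Ttr stood apart from the other 9 genes in the 11 mice, at 3150 to 6297 CPM per kilobase. Enpp2 followed at 296 to 645 CPM per kilobase. The remaining 8 genes were all between 3.75 and 27.4 CPM per kilobase, and their ranges overlapped in several cases, so that their order is not resolved by these mice. Otx2 and Slc4a5 had the lowest values, at 3.75 to 6.71 and 3.80 to 8.02 CPM per kilobase.

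The 10 genes moved together from mouse to mouse. The correlation of log2 CPM between any 2 of them over the 38 mice was between 0.915 and 0.989 (Pearson's r, 45 pairs, with a median of 0.968). These values read mainly the distance between the 11 and the 27 mice, and the points share their libraries. Within the 27 low mice r was between 0.225 and 0.923 with a median of 0.775, and within the 11 high mice between 0.698 and 0.960 with a median of 0.863. Kl, which neurons also make, had the lowest r to the mean of the 10 within the 27 mice (0.557), and Ttr had the highest (0.966).

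The genes most like these 10 were found by the correlation of log2 CPM with the mean log2 CPM of the 10 over the 38 mice. Of 18232 genes, 398 others reached r of 0.8 and 10 were at or below -0.8. These values, too, read mainly the distance between the 11 and the 27 mice. The 15 highest were F5, Mfrp, Cldn2, 1500015O10Rik, Col8a2, Tmem72, Steap1, Drc7, Slc2a12, Wfdc2, Msx1, Wdr86, Wdr72, Pla2g5 and Slc4a2, with r from 0.969 to 0.995. Within the 27 low mice alone their r was between 0.628 (Slc4a2) and 0.944 (F5). Of these, 9 were on a list of 24 further choroid plexus genes, among them F5 (coagulation factor V) and Cldn2 (the claudin of leaky tight junctions). F5 was between 52.5 and 111 CPM in the 11 mice and between 0.9003 and 8.86 CPM in the 27.

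On the list of 24 further choroid plexus genes, which was drawn up with earlier results of these data known, 23 had r of 0.8 or more. Their summed level was between 653 and 1195 CPM in the 11 mice and between 91.02 and 194 CPM in the 27, again with no overlap. The most abundant were Car12, Igfbp2, Ace, Prlr and Col9a3. Prlr, the prolactin receptor, was between 54.3 and 146 CPM in the 11 mice and between 1.82 and 18.9 CPM in the 27. Car12, a carbonic anhydrase, overlapped, at 88.0 to 146 CPM in the 11 and 24.6 to 108.6 CPM in the 27, and its r was 0.758.

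Over both ages together, the summed levels of markers of adjoining tissues overlapped between the 11 and the 27 mice, but within 6 months some of them moved with the choroid plexus genes. Over both ages, the summed level of 10 ependymal genes was between 59.97 and 93.8 CPM in the 11 mice and between 17.6 and 81.2 CPM in the 27. That of 12 leptomeningeal and stromal genes was between 230 and 579 CPM in the 11 and between 58.2 and 409 CPM in the 27. The sums of 7 endothelial genes (118 to 156 against 117 to 167 CPM), 5 blood genes (38.1 to 171 against 23.998 to 113 CPM), 8 thalamic genes (169 to 282 against 119 to 226 CPM) and 12 hippocampal genes (1405 to 1756 against 1224 to 2128 CPM) overlapped as well.

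Within 6 months, the ependymal sum was between 72.2 and 93.8 CPM in the 10 high mice and between 35.5 and 66.4 CPM in the 6 low mice, with no overlap. The leptomeningeal and stromal sum was between 332 and 579 CPM in the 10 and between 146 and 353 CPM in the 6, and of the low mice only mouse 75 reached the range of the high ones. The blood sum was between 54.98 and 171 CPM in the 10 and between 31.5 and 77.9 CPM in the 6, and the thalamic sum between 169 and 282 CPM and between 149 and 218 CPM. The endothelial and hippocampal sums overlapped more broadly, the latter at 1405 to 1590 CPM in the 10 and 1519 to 1705 CPM in the 6. The part of these tissues in the results was not tested.

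The start sites of these genes can be set beside their common behaviour. RefSeq promoter windows (GRCm38.p6, from 250 bases before to 50 after a start) were used for 6 of the 10 genes, Aqp1, Kcne2, Kcnj13, Kl, Otx2 and Slc4a5, with 10 windows in all. Ttr lies on a chromosome that was left out of the search, and Enpp2, Folr1 and Clic6 had no window of this length. The motif TAATCC, the core that OTX proteins bind, or its reverse complement GGATTA was in 1 of the 10 windows, against 7.06% of all 32851 windows of that length. That window belongs to Otx2 itself, with the motif 211 bases before the start, and 2 annotated exons cover it. The stretch around it (chr14:48665303-48665332, minus strand) is shown with the motif in capitals. The 250 bases before the starts of Kcnj13 (chr1:87394730-87394979, minus strand), Kcne2 (chr16:92292139-92292388, plus strand) and Aqp1 (chr6:55336049-55336298, plus strand) are shown as the upstream sequence of 3 genes that rose and fell together, all in lower case since they hold no match and overlap no annotated exon.
Otx2: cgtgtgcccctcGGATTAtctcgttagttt
Kcnj13: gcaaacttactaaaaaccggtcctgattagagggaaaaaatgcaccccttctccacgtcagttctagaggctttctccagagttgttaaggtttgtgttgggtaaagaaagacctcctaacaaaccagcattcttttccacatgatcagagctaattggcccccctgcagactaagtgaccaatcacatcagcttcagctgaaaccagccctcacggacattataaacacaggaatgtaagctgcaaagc
Kcne2: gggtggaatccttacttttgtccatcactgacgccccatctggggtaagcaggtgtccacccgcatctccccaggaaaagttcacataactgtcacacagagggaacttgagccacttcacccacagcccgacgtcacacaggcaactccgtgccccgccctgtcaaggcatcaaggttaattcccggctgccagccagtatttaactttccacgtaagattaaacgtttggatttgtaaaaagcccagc
Aqp1: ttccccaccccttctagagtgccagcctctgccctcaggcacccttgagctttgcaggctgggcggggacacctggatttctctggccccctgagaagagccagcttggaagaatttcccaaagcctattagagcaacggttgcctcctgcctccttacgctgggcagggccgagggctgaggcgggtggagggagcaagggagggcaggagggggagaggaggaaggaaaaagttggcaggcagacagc

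A match is a description of letters, and the absence of a match in these windows says nothing about the binding of the factor elsewhere. GC content of the shown stretches differed, at 45.2% for Kcnj13, 52.4% for Kcne2 and 62% for Aqp1.

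Between pairs of groups, none of the 10 genes passed the test, although their mean differences were large. The test was edgeR's quasi-likelihood test over all genes, a call was an adjusted p (Benjamini-Hochberg) below 0.1, and a log2 fold change is the fitted difference of levels on the log2 scale. At 6 months on placebo, all 10 genes were lower in APPPS1ΔE9 than in WT mice, with log2 fold changes from -1.49 to -0.94 (median -1.25), while the median of all genes was 0.00. The lowest unadjusted p among the 10 was 0.297 and the lowest adjusted p was 0.678 (edgeR), and 0.0715% of all 16774 genes were called. Ttr had a mean of 1789 ± 3042 CPM (SD, n = 4) in the APPPS1ΔE9 and 4262 ± 3105 CPM (SD, n = 4) in the WT placebo mice. Its log2 fold change was -1.26 with a standard error of 1.75 and an adjusted p of 0.797 (edgeR).

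The comparison of chows in APPPS1ΔE9 mice of 6 months uses the same placebo mice and had the opposite direction. All 10 genes were higher on anle138b, with log2 fold changes from 0.98 to 1.44 (median 1.17, against 0.00 for all genes). The lowest adjusted p was 0.633 (edgeR), and 0.0529% of 17009 genes were called. Ttr was at 4868 ± 3215 CPM (SD, n = 4) on anle138b, a log2 fold change of 1.44 with a standard error of 1.78 (edgeR, adjusted p = 0.734). Both differences come from the same count of mice, 1 high mouse of 4 in the placebo APPPS1ΔE9 group against 3 of 4 in the others.

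In the other comparisons of 6 months the groups held equal numbers of high mice and the 10 genes differed little. In WT mice, anle138b minus placebo gave log2 fold changes from 0.02 to 0.36 (median 0.21), with 0 of 10 called and 0% of 16766 genes called by edgeR (310 at an unadjusted p under 0.05, and 2 called by DESeq2). On anle138b, APPPS1ΔE9 minus WT gave changes from -0.42 to 0.00 (median -0.17), with 0 of 10 called and 0.047% of 17033 genes called.

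In the comparisons of 10 months that include APPPS1ΔE9 anle138b mice, the change of Ttr turned on mouse 99. On anle138b, all 10 genes were higher in APPPS1ΔE9 than in WT mice, with log2 fold changes from 0.81 to 3.71 (median 2.03), and 0 of 10 were called against 0.723% of 17151 genes. Of the 10 genes, 3 had an unadjusted p under 0.05, as had 5.78% of all genes, and the lowest adjusted p was 0.788 (edgeR). Ttr had the largest change, at 3.71 with a standard error of 1.5 and an adjusted p of 0.788 (edgeR). Without mouse 99 it was 0.65 with an adjusted p of 0.923 (edgeR). DESeq2, which by default replaces outlying counts in groups of 7 or more, gave 0.60 with all mice.

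In APPPS1ΔE9 mice of 10 months, anle138b minus placebo gave log2 fold changes from 0.70 to 3.43 (median 2.42), with 0 of 10 called and 0% of 17110 genes called by edgeR (254 at an unadjusted p under 0.05, and 0 called by DESeq2). At an unadjusted p under 0.05 were 3 of the 10 genes (Ttr, Slc4a5 and Kcne2) and 1.48% of all genes. Ttr was again the highest, at 3.43 with a standard error of 1.48 (edgeR, adjusted p = 0.999), at 0.37 without mouse 99 and at 0.34 with DESeq2. Leaving out all mice over 1 CPM took it to -0.34, and the genotype difference on anle138b to -0.06.

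The comparisons of 10 months without mouse 99 had all 10 genes lower in the first-named group. On placebo, APPPS1ΔE9 minus WT gave log2 fold changes from -1.34 to -0.12 (median -0.72), with 0 of 10 called and 0.324% of 16971 genes called. Of the 10 genes, 3 had an unadjusted p under 0.05, as had 4.1% of all genes, and the lowest adjusted p was 0.974 (edgeR). In WT mice, anle138b minus placebo gave changes from -1.21 to -0.05 (median -0.42), with 0 of 10 called and 0% of 16986 genes called by edgeR (212 at an unadjusted p under 0.05, and 0 called by DESeq2). At an unadjusted p under 0.05 were 2 of the 10 genes (Ttr and Slc4a5) and 1.25% of all genes. Both share the WT placebo mice, in which mouse 53 had the highest Ttr (244 CPM).

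**Figure D4:**
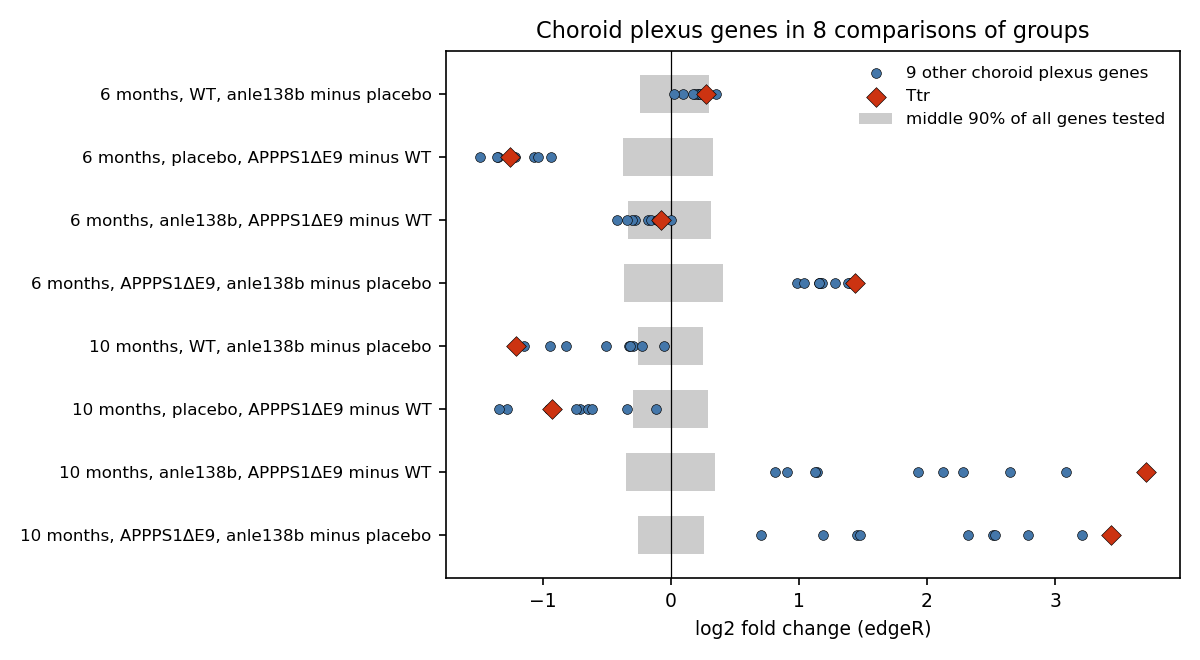
Log2 fold change (edgeR) of the 10 choroid plexus genes in the 8 comparisons of groups, with Ttr as a diamond, the other 9 genes as circles and the middle 90% of all genes tested as a grey bar. In 4 of the 8 comparisons, with Ttr at -1.26, 1.44, 3.71 and 3.43, all 10 genes lie outside the grey bar, and none of them passed the test.

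A test on single values gave the same answer for Ttr. Two-sided exact permutation tests of the mean log2 CPM gave p from 0.127 to 0.622 in the 8 comparisons, and every adjusted p over these 8 was 0.622. The largest differences of mean log2 CPM were -2.53 for APPPS1ΔE9 minus WT on placebo and 2.67 for anle138b minus placebo in APPPS1ΔE9 mice, both at 6 months (exact permutation p = 0.314 each, in 4 against 4 mice). With 4 against 4 mice the smallest p such a test can give is 0.0286. The difference of 10 months in WT mice between anle138b and placebo was -1.08 (exact permutation p = 0.127, in 5 against 5 mice).

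Over all 38 mice in a single fit, the 10 genes were lower at 10 than at 6 months, and all 10 were called. The background of this contrast is broad: 61.8% of 18232 genes were called, 5858 of them lower and 5418 higher at 10 months. The count of calls thus says little about the 10 genes or about the lists below, and the sizes of the changes are given as a description. Ttr fell by 4.93 on the log2 scale (standard error 0.75, adjusted p = 1.7e-06, edgeR), and Kl, with the smallest change, fell by 1.85. The fitted log2 changes of the others were -4.32 for Kcne2, -4.29 for Slc4a5, -4.01 for Kcnj13, -3.92 for Folr1 and -3.87 for Aqp1. They were -3.02 for Clic6, -2.83 for Enpp2 and -2.69 for Otx2. With 1 mouse left out the change of Ttr ranged from -5.68 without mouse 99 to -4.25 without mouse 17. The middle 90% of all genes lay between -0.54 and 0.77. Of the further choroid plexus genes, 24 of 24 were called lower (median -2.49), and so were 10 of 10 ependymal genes (median -0.93), 8 of 12 leptomeningeal and stromal genes, 5 of 5 blood genes, 3 of 8 thalamic genes, 2 of 7 endothelial genes and 1 of 12 hippocampal genes. In the other direction, 3 endothelial genes and 1 hippocampal gene were called higher.

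Averaged over the 4 pairs of groups, neither genotype nor chow gave a call among the 10 genes. APPPS1ΔE9 minus WT gave log2 fold changes from -0.28 to 0.36, with 0 of 10 called against 1.46% of 18232 genes. anle138b minus placebo gave changes from 0.42 to 0.98, all positive, with 0 of 10 called and 0% of all genes called by edgeR (877 at an unadjusted p under 0.05, and 5 called by DESeq2). The averaged chow change of Ttr, 0.98, rested on single mice, at 0.22 without mouse 99 and 1.66 without mouse 17. The chow difference was not shown to differ between genotypes: of the 10 genes 0 were called in the interaction at 6 months (log2 values from 0.75 to 1.19, and 0% of all genes called, with 1193 at an unadjusted p under 0.05 and 0 called by DESeq2). At 10 months 0 were called as well (log2 values from 0.93 to 4.63, and 0% of all genes called, with 573 at an unadjusted p under 0.05 and 3 called by DESeq2). The interaction of Ttr at 10 months, 4.63, was 1.59 without mouse 99, and that at 6 months, 1.17, was 3.85 without mouse 17.

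The spread inside the groups was wide. The pooled within-group SD of log2 CPM was 2.28 for Ttr, 1.97 for Slc4a5, 1.86 for Kcne2 and 1.82 for Aqp1, while the median over 18232 genes was 0.19. Ttr ranked as the gene with the 9th largest spread, and all 10 were among the 300 genes with the largest spread. Kl had the smallest spread of the 10, at 0.96.

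To see how far the choroid plexus signal reached into other genes, a score was given to each mouse, the mean log2 CPM of Folr1, Clic6, Kcne2, Otx2, Slc4a5 and Kcnj13, and its slope was fitted for each gene beside the 8 groups. The score was 4.13 ± 1.95 (SD, n = 4) in WT placebo, 4.33 ± 1.97 in WT anle138b and 4.11 ± 1.96 in APPPS1ΔE9 anle138b mice of 6 months, and 2.05 ± 2.31 in APPPS1ΔE9 placebo mice (SD, n = 4 each). At 10 months the means of the groups lay between -0.11 and 0.72. The slope passed the test in 6.93% of 18232 genes, and apart from the 10 genes these were 1254 genes, of which 1016 rose and 238 fell with the score. The 6 genes of the score rise with it by construction.

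Ttr, which is not in the score, rose by 1.36 on the log2 scale per unit of score. Among the further choroid plexus genes 24 of 24 rose with the score, with a median slope of 0.68 per unit, and the steepest of them was Tmem72 at 1.31. Of the ependymal genes 7 of 10 rose, against 1 of 12 leptomeningeal and stromal, 1 of 8 thalamic, 0 of 7 endothelial, 0 of 5 blood and 0 of 12 hippocampal genes. A slope of 0.5 or more was found in 91 genes and one of -0.5 or less in 1 gene. Most slopes were small, with a median of 0.14 among the rising genes.

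The score differed most in both comparisons of 6 months with unequal counts of high mice. It was 2.08 lower in APPPS1ΔE9 than in WT mice on placebo at 6 months, and 2.06 higher on anle138b than on placebo in APPPS1ΔE9 mice. The product of slope and score difference was 0.2 or more in size for 674 of the 1254 genes in the first and for 672 in the second comparison, and 1 or more for 98 and 96 genes. In the WT comparison of chows at 6 months it reached 0.2 for 9 genes, and in the genotype comparison on anle138b for 17 genes. At 10 months the score differed by -0.83 between genotypes on placebo and by -0.59 between chows in WT mice, with 0 high mice in each group, and the product reached 0.2 for 270 and 160 genes. In the comparisons with mouse 99 it differed by 0.45 between genotypes and by 0.69 between chows, and in the latter the product reached 0.2 for 207 genes. The slopes come from the same mice, so these products describe the comparisons and do not test them.

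The measured fold changes lay in the same direction. The choice of these genes by their slope in the same mice makes this likely, so it is a description and no test. The 1016 genes that rise with the score had a median log2 fold change of -0.24 in APPPS1ΔE9 minus WT on placebo and of 0.28 in anle138b minus placebo in APPPS1ΔE9 mice, both at 6 months, while the median of all genes was 0.00 in each. In WT mice of 6 months the median was 0.04 between chows, and on anle138b it was -0.03 between genotypes. At 10 months the medians lay between -0.04 and 0.09.

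With the score as a covariate, the number of genes at an unadjusted p under 0.05 fell in 5 of the 8 comparisons and rose in the other 3. On placebo at 6 months, APPPS1ΔE9 minus WT went from 12 called genes to 7, of which 6 were called in both, and from 1858 to 1025 genes at an unadjusted p under 0.05. In APPPS1ΔE9 mice of 6 months, anle138b minus placebo went from 9 called genes to 6, all 6 called in both, and from 2233 to 1221 genes at an unadjusted p under 0.05. The number at an unadjusted p under 0.05 rose at 6 months from 310 to 402 between chows in WT mice and from 961 to 1203 between genotypes on anle138b, and at 10 months from 212 to 237 between chows in WT mice, where the score differed by -0.59. At 10 months on placebo the called genes went from 55 to 16, all 16 called in both, and on anle138b from 124 to 100, of which 97 were called in both.

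Another difference between the mice ran along the same comparisons. Xist was higher than the Y-linked sum in 3 of 4 WT and 0 of 4 APPPS1ΔE9 mice on placebo at 6 months, and in 3 of 5 and 0 of 5 at 10 months. A covariate that split the mice into those with a high and a low Y-linked sum was fitted. With it the calls went from 12 to 4 and from 55 to 15, against 7 and 16 with the score. How much each has to do with the calls was not tested.

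With all mice, genes that follow the score were no larger a share of the genes at an unadjusted p under 0.05 than of all genes tested, except at 10 months on placebo (9.81% against 6.59%). On placebo at 6 months they were 5.54% of the genes at an unadjusted p under 0.05 and 7.11% of all genes tested, and in APPPS1ΔE9 mice 4.57% against 7.11%. Genes that follow the score vary with it inside the groups, since high and low mice are mixed there, and this spread raises their p. A small share therefore cannot tell how far the signal shifts their group means. A covariate that differs between groups also widens the error of the group difference. How much of the fall in counts comes from this was not tested.

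**Figure D5:**
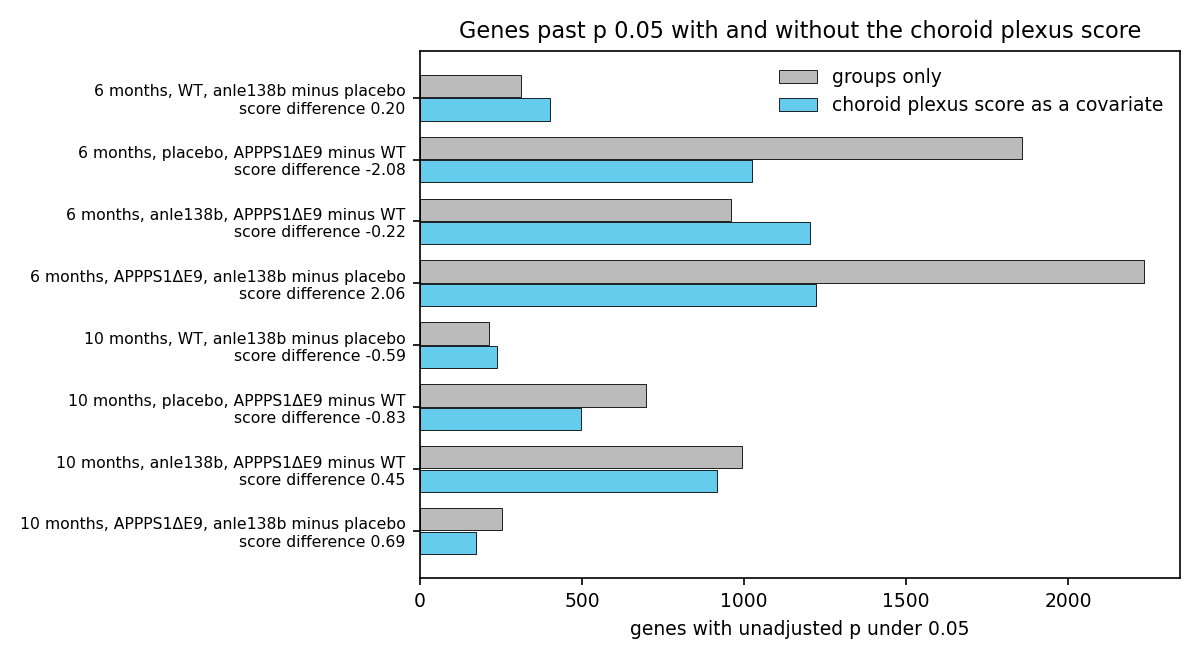
Number of genes with an unadjusted p under 0.05 (edgeR) in the 8 comparisons, from fits with the groups only (grey) and with the choroid plexus score as a covariate (blue), with the score difference of the groups under each label. The longest grey bars, at 1858 and 2233 genes, belong to the comparisons with score differences of -2.08 and 2.06, and shrink to 1025 and 1221.

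The number of genes of this kind that were called turned on mouse 17. Without mouse 17, the only high APPPS1ΔE9 placebo mouse of 6 months, the genotype comparison on placebo went from 12 to 205 called genes, of which 93, or 45.4%, follow the score, against 7.05% of the genes tested. The comparison of chows in APPPS1ΔE9 mice went from 9 to 317 called genes, of which 124, or 39.1%, follow the score, against 7.07% of the genes tested. The genes that follow the score were picked in the same mice, and without mouse 17 the groups differ more in the score. A larger share of such genes among the calls is partly built in, so these shares are a description and no test. All 12 and all 9 genes called with every mouse were called without mouse 17 as well. Other mice moved the first count too, to 6 without mouse 74 or mouse 31 and to 23 without mouse 37, and the second to 16 without mouse 84. None of the 10 choroid plexus genes was called, with Ttr at -3.94 (adjusted p = 0.369, edgeR) and 4.14 (adjusted p = 0.310, edgeR).

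With only the high mice of 6 months, the same comparisons gave 11 and 17 called genes, of which 3 (27.3%, against 7.02% of the genes tested) and 0 follow the score, and 5 and 5 were called with all mice as well. These fits hold 1 APPPS1ΔE9 placebo mouse, which is assumed to vary like the mice of the other group. Ttr differed little among these mice, at 0.16 in the genotype comparison on placebo and 0.04 between chows in APPPS1ΔE9 mice. The choice of the mice by genes that move with Ttr makes this likely, so it is a description and no test. Between genotypes on anle138b, with 3 against 3 high mice, 18 genes were called against 8 with all mice, and 8 were called in both.

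Few called genes outside the list resembled the choroid plexus genes when all mice were used. With r of 0.8 or more in size to the mean of the 10 genes, Slc37a2 was the only called gene in the 8 comparisons of groups, in APPPS1ΔE9 minus WT on anle138b at 10 months. Slc37a2 had a log2 fold change of 0.94 with a standard error of 0.20 (edgeR, adjusted p = 0.0699) and r of 0.833. In the contrast of ages 408 such genes were called, which are all 398 with r of 0.8 or more and all 10 at or below -0.8. Those with the largest changes were Cdh3 at -4.81, Defb11 at -4.79 and Tmem72 at -4.74. These genes were picked in the same mice, of which 10 of 16 were high at 6 months and 1 of 22 at 10 months. Their calls between ages are therefore largely built in and are no test, and 61.8% of all genes were called in this contrast.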

How the data were processed

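Hippocampal mRNA of 38 mice was sequenced from TruSeq libraries. The authors used STAR for mapping (build mm10) and HTSeq, set to intersection-nonempty, for counting, and the deposited files hold raw read counts of 48709 genes for each mouse, without normalization. The annotation release and strandedness are not given in the sources used here. GENCODE M21 names 48349 of the genes.

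CPM were computed from the library totals. The counts were tested with edgeR 4.0.16 in R 4.3.3 (filterByExpr with a minimum count of 10 and a minimum total of 15, TMM, robust glmQLFit, glmQLFTest) for each pair of groups and in 1 fit over 8 groups, and a Benjamini-Hochberg adjusted p under 0.1 over all genes tested was a call. A standard error was obtained from the log2 fold change and its F statistic, as |log2 fold change|/√F. Ttr was also tested with exact permutation tests of log2 CPM (prior count 2). The edgeR test was checked on simulated counts. Depth limits low genes: 3 reads was the lowest count of a member.

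The members and lists were chosen with earlier results of these data known. Named were the 10 members, App, the 15 genes most correlated with them, the 5 most abundant of the further choroid plexus genes, and up to 3 called genes with r of 0.8 or more in size in each comparison. The limit of 10 CPM, the fits restricted to the high mice and the fit of slopes were added after seeing the data. Alternatives were DESeq2 1.42.0, RLE size factors, no filter, an adjusted p under 0.05, a replicate block, a Y-linked covariate, the score, lane 4 only, mice left out, and other CPM limits. No libraries of a group agreed within sampling noise, as chi-square per degree of freedom was at least 2.99 in every pair, and each was used as 1 replicate. Groups were taken from the titles, and the p-values measure the spread between these mice.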

Additional observations from a re-analysis of the deposited data

Results flagged for a closer look

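In groups of 4 to 7 mice, a mouse was singled out where its gap to the nearest other mouse, on the log2 CPM scale, passed Dixon's 95% limit. Of 80 sets of a gene in a group, 25 had such a mouse, and chance gives about 1 in 20 sets where values are normally distributed. The share over all genes was not counted, so the 25 sets are a description. The 10 genes move together, so the sets are not independent, and the 25 came from 4 mice.

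Mouse 84 was the low mouse of the 4 APPPS1ΔE9 anle138b mice of 6 months for all 10 genes: Ttr was at 121 CPM, Kl at 27.9 CPM, Folr1 at 2.98 CPM, Clic6 at 11.5 CPM, Kcne2 at 0.946 CPM, Enpp2 at 277 CPM, Aqp1 at 0.946 CPM, Otx2 at 3.78 CPM, Slc4a5 at 1.02 CPM and Kcnj13 at 0.665 CPM. Mouse 83 was the low mouse of the 4 WT anle138b mice of 6 months for all 10 genes: Ttr was at 207 CPM, Kl at 30.9 CPM, Folr1 at 3.15 CPM, Clic6 at 10.1 CPM, Kcne2 at 1.09 CPM, Enpp2 at 336 CPM, Aqp1 at 1.61 CPM, Otx2 at 3.56 CPM, Slc4a5 at 1.65 CPM and Kcnj13 at 1.16 CPM. Mouse 77 was low among the 4 WT placebo mice of 6 months for Ttr at 137 CPM and Kcne2 at 1.43 CPM. Mouse 99 was high among the 7 APPPS1ΔE9 anle138b mice of 10 months for Kl at 144 CPM, Kcne2 at 20.03 CPM and Enpp2 at 1712 CPM. Each of these mice is thus the single mouse of its group on the other side of the gap between the 11 high and the 27 low mice, and the cause was not tested.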

How the results depend on the processing

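The count of called choroid plexus genes was the same under every alternative in which it was taken. It was 0 in all these fits apart from the contrast of ages, where it was 10 in each fit, mice left out included. It was not taken in the fits with the choroid plexus score as covariate, since the score is made from some of these genes. Counts over all genes moved more. DESeq2 called 91, 42 and 206 genes in the 6-month comparisons of genotypes on placebo, of genotypes on anle138b and of chows in APPPS1ΔE9 mice (12, 8 and 9 with edgeR), 2 between chows in WT mice, 116 and 188 at 10 months between genotypes on placebo and on anle138b (55 and 124), 5 for the average of chows and 3 in the interaction at 10 months. Without a filter on low counts 110 and 120 genes were called at 6 months between genotypes on placebo and between chows in APPPS1ΔE9 mice. Lane 4 only gave 1 gene between chows in WT mice. The Y-linked covariate gave 4 genes at 6 months on placebo, and 15 and 299 at 10 months on placebo and on anle138b. The choroid plexus score as covariate gave 7 and 16 genes on placebo at 6 and 10 months. An adjusted p under 0.05 left 77 genes on anle138b at 10 months. High mice only, added after seeing the data, gave 18 genes between genotypes on anle138b at 6 months and 17 between chows in APPPS1ΔE9 mice. The cause of these moves was not tested.

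The replicate number of the titles was tried as a block, which gave 13 genes at 6 months on anle138b (8 without it), and 25 and 20 at 10 months on placebo and on anle138b. For Ttr at 10 months it gave 0.90 between genotypes on anle138b and 0.55 between chows in APPPS1ΔE9 mice. It turned the averaged genotype difference of Ttr, which was not called, to -0.10. The numbers were not taken as pairs, since in no comparison was every correlation of same-numbered deviations over 0.1 (means from -0.25 to 0.35). This rule cannot exclude a pairing. Between chows at 10 months, 4 of 5 pairs were over 0.1 in WT mice and 0 of 5 in APPPS1ΔE9 mice. At 6 months the high mice had replicate numbers from 1 to 3 and the low mice from 2 to 4. The block could not be fitted for the contrast of ages, and at 6 months too few mice remained without those over 1 CPM. The Y-linked covariate was not run between chows in APPPS1ΔE9 mice at 6 months, which have a single level of it.

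Leaving out 1 mouse at a time gave, at 6 months, 6 to 205 called genes between genotypes on placebo, 9 to 44 on anle138b (44 without mouse 84), 6 to 317 between chows in APPPS1ΔE9 mice and 0 to 2 in WT mice (2 without mouse 83). At 10 months it gave 37 to 67 on placebo and 63 to 151 on anle138b between genotypes (63 and 69 without mice 61 and 60, and 81 or 82 without 1 of 3 APPPS1ΔE9 mice), and over all mice 224 to 284 for genotype, 0 to 3 for chow (3 without mouse 83), 10917 to 11484 for age and 0 to 1 in each interaction. The difference of mean log2 CPM of Ttr ranged, at 6 months, from -3.89 to -1.36 between genotypes on placebo, from -1.50 to 1.17 on anle138b, from 1.49 to 4.09 between chows in APPPS1ΔE9 mice and from -0.94 to 1.64 in WT mice. At 10 months it ranged from -1.29 to -0.44, from 0.16 to 1.54, from -0.071 to 1.31 and from -1.51 to -0.74 in the same order. Every adjusted exact permutation p of these and the other alternatives was at least 0.190. The edgeR log2 fold change of Ttr ranged from -0.48 to 0.32 (6 months, genotypes on anle138b), from -0.13 to 0.68 (6 months, chows in WT mice) and from -0.40 to 0.48 (genotype over all mice). With high mice only it was 0.16 on placebo at 6 months. Without the mice over 1 CPM it was -0.055 between genotypes on anle138b and -0.34 between chows in APPPS1ΔE9 mice at 10 months.

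The number of mice over the limit was 24 at 0.5 CPM (9 at 10 months), 12 at 2 CPM, 18 with 5 of the 6 genes, 21 by Ttr at 100 CPM (6 at 10 months) and 15 with TMM-scaled CPM. At 10 months it was 1 at 2, 5 and 10 CPM and by Ttr at 1000 CPM.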
